A study of Mus musculus with 2 samples.

Results

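The genes described here are 9 mouse genes that form 5 nested arrangements, in each of which an imprinted transcript starts inside an intron of another transcript. The members were given as named pairs: Nnat in Blcap, Nap1l5 in Herc3, Zrsr1 in Commd1, Mcts2 in H13, and an intronic start of Inpp5f inside its own gene. Their CpG cytosines were taken from the gene bodies and from windows of 1 kb either side of the transcription starts, with at least 5 reads in each library and outside the CCGG and TCGA recognition sites of the restriction enzymes. This gave 706 cytosines of the 1850635 compared across the genome, read 19213 times in siCon and 17539 times in siH19. Of these, 206 lay in the start windows of the 5 internal transcripts and 241 in the start windows of the 5 hosts, and the other members lay elsewhere in the gene bodies.

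The DNA came from myotubes, the multinucleate cells formed by differentiating mouse C3H myoblasts in culture. Of the 2 samples, 1 had been transfected with a control siRNA (siCon) and 1 with an siRNA that knocks down H19, an imprinted long non-coding RNA (siH19), and both were harvested after 48 h. There was 1 library per treatment, so that each test below compares 2 libraries, and a difference between cultures and an effect of the knockdown cannot be told apart. Methylation was read by reduced representation bisulfite sequencing of fragments cut at MspI (CCGG) and TaqαI (TCGA) sites. Bisulfite converts unmethylated cytosine so that it is read as T, and the methylation level is the share of reads that still show C. RNA was not measured in these files, so neither the H19 knockdown nor the expression of the genes can be checked here. The files held 104999613 reads summed over 5453019 cytosines in siCon and 106372792 over 5266846 in siH19, with median depths of 12 and 13. Among the 4 promoters of muscle genes used as markers, Des stood at 3.98% and 5.00% in siCon and siH19, Ckm at 7.98% and 11.3%, Myod1 at 34.1% and 39.4%, and Myog at 72.7% and 80%. These levels describe DNA and not the differentiation state, which was not measured here.

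Imprinted genes are expressed mainly from the copy inherited from 1 parent. At many of them a CpG-rich promoter receives methylation in only 1 parent's germ cells, keeps it on that copy after fertilisation, and is silent there, so that DNA from a diploid cell population reads as a mixture of methylated and unmethylated copies. Nnat, Nap1l5, Zrsr1, Mcts2 and the internal Inpp5f transcript belong to a class of paternally expressed genes that sit in introns of host genes, several of them as retrocopies of genes on chromosome X, with methylation on the maternal copy. Where the host has its own CpG-rich promoter, that promoter is typically unmethylated on both copies. The comparison that follows is therefore between an internal and a host promoter of the same locus, read from the same DNA.

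All coordinates are those of GRCm38, counted from 1, with genes from GENCODE. Nnat, which encodes neuronatin, a small membrane proteolipid, starts at chr2:157560078 in intron 1 of Blcap on the opposite strand. Blcap encodes a small membrane protein associated with bladder cancer. Nap1l5, an intronless gene related to nucleosome assembly proteins, starts at chr6:58907076 in intron 22 of the transcript Herc3-202, also on the opposite strand, while Herc3-201 ends 1152 bp before the Nap1l5 gene. Herc3 encodes a HECT-type ubiquitin ligase. Zrsr1, a retrocopy of the X-linked splicing factor gene Zrsr2, starts at chr11:22972005 in intron 1 of the longest Commd1 transcript on the opposite strand. Commd1 encodes a protein of copper homeostasis and endosomal sorting. Mcts2, a retrocopy of the X-linked gene Mcts1, starts at chr2:152687035 in intron 4 of H13 and on the same strand, and the short transcript H13-203 ends 334 bp before it. H13 encodes the signal peptide peptidase, an intramembrane protease. The internal Inpp5f start lies at chr7:128688489 in intron 15 of Inpp5f-201, 77161 bp downstream of the gene start. Inpp5f encodes an inositol phosphatase.

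The stretches printed below show part of the CpGs in the internal windows, with 1 coding stretch and 1 upstream stretch from hosts for contrast. They hold all the compared cytosines of the Nap1l5 and internal Inpp5f windows, 38 of 66 for Nnat, 20 of 46 for Mcts2 and 6 of 65 for Zrsr1. Each was read from the GRCm38 sequence in the direction of its gene, and was chosen as the run of up to 240 bases outside annotated untranslated regions that holds the most compared CpGs. Capitals mark the compared CpGs. CpGs left in lower case lay inside an enzyme site or were not read deeply enough.
Nnat, chr2:157560323-157560557, + strand: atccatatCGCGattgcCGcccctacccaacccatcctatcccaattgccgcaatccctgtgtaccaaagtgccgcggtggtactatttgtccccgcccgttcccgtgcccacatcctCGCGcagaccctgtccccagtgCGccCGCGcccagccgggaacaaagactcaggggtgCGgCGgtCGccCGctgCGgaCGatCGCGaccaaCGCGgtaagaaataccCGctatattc
Nap1l5, chr6:58906647-58906874, - strand: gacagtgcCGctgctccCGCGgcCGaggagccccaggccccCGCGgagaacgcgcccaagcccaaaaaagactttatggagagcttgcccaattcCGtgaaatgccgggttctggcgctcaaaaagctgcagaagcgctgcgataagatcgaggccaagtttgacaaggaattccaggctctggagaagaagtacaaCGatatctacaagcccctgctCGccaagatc
Zrsr1, chr11:22971944-22971991, + strand: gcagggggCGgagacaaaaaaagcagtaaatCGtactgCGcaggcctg
Mcts2, chr2:152686865-152686979, + strand: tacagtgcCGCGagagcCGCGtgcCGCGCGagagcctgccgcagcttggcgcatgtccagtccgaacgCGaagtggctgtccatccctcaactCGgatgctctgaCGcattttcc
Inpp5f internal start, chr7:128688083-128688309, + strand: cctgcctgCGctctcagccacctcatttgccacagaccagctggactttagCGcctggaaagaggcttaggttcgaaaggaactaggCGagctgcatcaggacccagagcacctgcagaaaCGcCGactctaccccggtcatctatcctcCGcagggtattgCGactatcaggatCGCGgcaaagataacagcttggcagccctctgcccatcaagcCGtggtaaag
Commd1, chr11:22982158-22982255, - strand: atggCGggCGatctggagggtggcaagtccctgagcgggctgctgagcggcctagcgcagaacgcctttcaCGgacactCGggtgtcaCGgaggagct
H13, chr2:152669232-152669410, + strand: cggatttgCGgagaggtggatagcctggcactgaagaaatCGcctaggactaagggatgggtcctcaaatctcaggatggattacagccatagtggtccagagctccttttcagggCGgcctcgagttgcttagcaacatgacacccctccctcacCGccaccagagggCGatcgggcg

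The 7 stretches differed widely in methylation. The 38 cytosines of the Nnat stretch were read at 98.0% in siCon and 97.4% in siH19, and none fell below 84.0%. Its 235 bases include 88 coding bases. Nap1l5, whose 228 bases are all coding, stood at 59.8% and 60.8%. The 48 bases upstream of Zrsr1 stood at 50.0% and 42.9%. In the 115 bases upstream of Mcts2 the levels were 42.0% and 28.6%, and in the 227 bases upstream of the internal Inpp5f start they were 51.1% and 64.5%. By contrast, the coding stretch of Commd1 held 1 methylated of 449 reads in siCon, or 0.223%, and 2 of 336 in siH19, or 0.595%. The H13 stretch held 1.66% and 2.07%.

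The first question was how the internal promoter of each locus compared with the promoter of its host. The internal windows of Nap1l5, Zrsr1, Mcts2 and Inpp5f lay between 30 and 70% in both libraries, Nnat lay at 97.4%, and the 5 host windows lay between 0.460 and 3.88%. The internal window was therefore higher than the host window in 5 of 5 pairs in each library. Levels are read-weighted over the cytosines of a window, with Wilson 95% intervals that cover counting error only. Cytosines of 1 fragment and strand are covered by the same reads, which makes these intervals too narrow.

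At the Nnat window the level was 97.4% (96.5 to 98.1) over 66 cytosines in siCon and 97.4% (96.5 to 98.1) in siH19. Of its cytosines, 63 were at 90% or more in siCon and 61 in siH19, and none lay between 30 and 70% in either library. The Blcap window was placed at the start of the coding transcript Blcap-201, chr2:157566361, because the window at the outermost annotated start of the gene held 0 compared cytosines. Its level was 1.63% (1.14 to 2.31) over 49 cytosines in siCon and 3.88% (2.94 to 5.10) in siH19. The difference between the internal and the host window was 95.8 points (94.6 to 96.6) in siCon and 93.5 points (92.0 to 94.7) in siH19, over a distance of 6283 bp between the starts. Nnat had the widest gap of the 5 pairs in both libraries.

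A single cytosine made up most of the methylated reads at Blcap. The plus-strand cytosine at chr2:157566120, 6 bases before the end of its fragment, was methylated in 25 of 25 reads in siCon and 29 of 29 in siH19, while its partner on the minus strand was methylated in 0 of 16 and 1 of 17. Without it, a choice made after seeing the value, the other 48 cytosines stood at 0.275% and 1.57%. The same strand asymmetry was present in both libraries, and its cause was not tested.

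Nap1l5 had 17 compared cytosines, all downstream of its start between 210 and 421 bp, with a level of 59.8% (55.1 to 64.3) in siCon and 60.8% (55.5 to 65.8) in siH19. Single cytosines ranged from 45 to 83.3% in siCon and from 33.3 to 78.6% in siH19. The Herc3 window, 75611 bp away, stood at 1.22% (0.766 to 1.95) over 61 cytosines in siCon and 0.569% (0.309 to 1.04) in siH19. The gap was 58.5 points (53.8 to 63.1) and 60.2 points (54.9 to 65.3). Of 73 CpGs in the Nap1l5 window 12.3% were compared, so that this level describes the start of the coding sequence and not the whole promoter.

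Zrsr1 was the most uneven of the internal windows. Its 65 cytosines gave 32.4% (30.3 to 34.5) in siCon and 38.2% (35.8 to 40.7) in siH19, but single cytosines ranged from 0 to 100% and from 12.5 to 100%. With both strands pooled, the level differed along the window. From 500 bp before the start to the start it was 47.2% and 43.9%, in the 500 bp after it 45.1% and 50.8%, and in the next 500 bp 20.3% and 29.8%. Within a restriction fragment and strand the cytosines stood close together. Their median range was 6.83 points in siCon and 9.09 points in siH19 over 15 fragment strands. The same reads cover such cytosines, so they are not separate observations. The fragment strands themselves ran from 6.94 to 100% and from 17.7 to 100%. The extremes at 100% and at 0% rest on few reads, while the lowest fragment strands had median depths of 29 in siCon and 32 in siH19. The fragment strands at 100% had a median depth of 9 in siCon and 7 in siH19, and the cytosine at 0% was read 5 times. Commd1 stood at 3.25% (2.39 to 4.42) over 32 cytosines in siCon and 1.24% (0.765 to 2.01) in siH19. In siCon its minus strand stood at 5.21% and its plus strand at 0.213%. Most methylated reads came from the fragments chr11:22981398-22981582 (26 of 154) and chr11:22982373-22982571 (10 of 102). Neither had a compared plus-strand cytosine. In the fragments compared on both strands, no strand exceeded 2.86% in siCon. The gap between Zrsr1 and Commd1 was 29.1 points (26.7 to 31.4) and 37.0 points (34.4 to 39.5).

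The Mcts2 window gave 37.2% (34.7 to 39.7) over 46 cytosines in siCon and 31.4% (28.5 to 34.4) in siH19, with single cytosines between 17.4 and 55.6% and between 11.1 and 54.5%. No cytosine of Mcts2 exceeded 90% in either library and none fell below 10%. The H13 window, 17574 bp upstream on the same strand, stood at 0.597% (0.290 to 1.23) over 30 cytosines and 2.06% (1.23 to 3.44). This left a gap of 36.6 points (34.0 to 39.2) in siCon and 29.3 points (26.1 to 32.5) in siH19.

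The internal Inpp5f start was measured least deeply. Its 12 cytosines, at positions -398 to -188 bp relative to the start, were read 190 times in siCon and 166 times in siH19, and gave 51.1% (44.0 to 58.1) and 64.5% (56.9 to 71.3). All 12 lay between 30 and 70% in siCon and 9 did in siH19. Of 89 CpGs in this window 11.2% were compared, on 4 fragment strands, and 10 of the 12 cytosines lay on the minus strand. The annotated internal start of Inpp5f-208 holds the same 12 cytosines in its window, and the windows of 2 further internal starts, of retained-intron transcripts nearer to the gene start, held 0. At the gene start of Inpp5f the level was 0.561% (0.321 to 0.979) over 69 cytosines and 0.460% (0.25 to 0.845). The gap within this gene was 50.5 points (43.4 to 57.5) and 64.0 points (56.5 to 70.9).

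**Figure D1:**
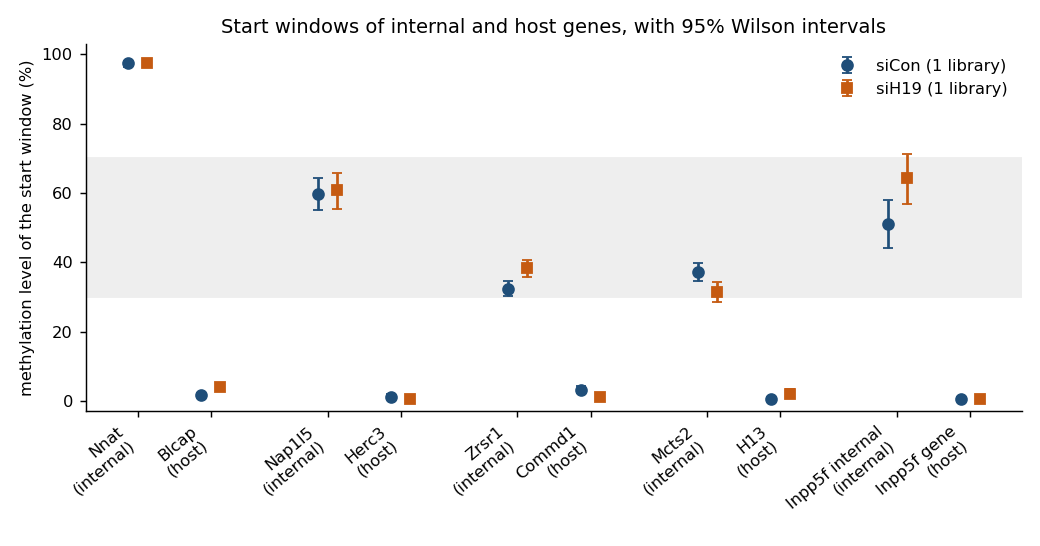
Methylation level in percent (y axis) of the start window of each internal and host gene, in siCon (circles) and siH19 (squares), 1 library each, with Wilson 95% intervals; the shaded band is 30 to 70%. Nap1l5, Zrsr1, Mcts2 and the internal Inpp5f start lie in the band in both libraries, Nnat at 97.4%, and the 5 hosts between 0.460 and 3.88%.

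A level between 30 and 70% was uncommon among promoters of this kind. Over all 29618 start windows with at least 5 compared cytosines, 13.7% lay between 30 and 70% in both libraries. Among the 18693 windows with at least 60 CpGs, a limit set after seeing that the 10 member windows held 68 to 100, the share was 7.48%. Against this background 4 of 5 internal windows and 0 of 5 host windows lay in that range. The internal count was 3 of 5 with enzyme sites kept, on the minus strand alone, and with 1 cytosine kept per fragment and strand. On the plus strand alone it was 3 of 4. Levels under 10% in both libraries were found in 71.4% of the CpG-dense windows, and all 5 hosts were among them. The level of Nnat was the rarer one, since 1.01% of CpG-dense windows were at 90% or more in both libraries. The median CpG-dense window stood at 1.90% in siCon and 1.87% in siH19.

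**Figure D2:**
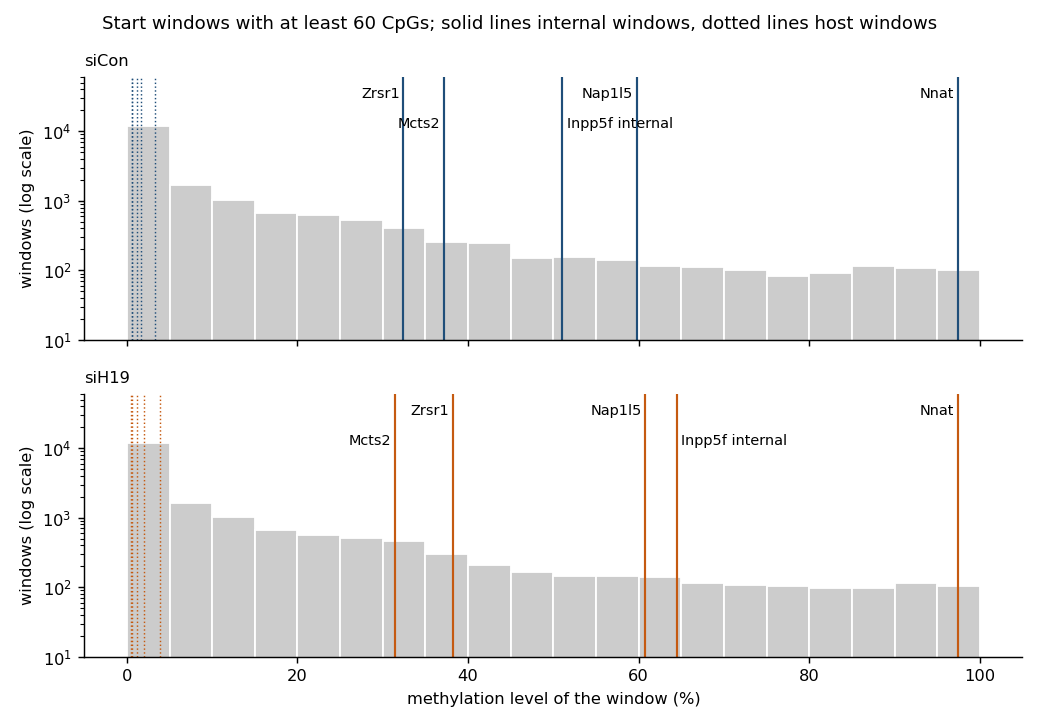
Number of CpG-dense start windows (y axis, log scale) by methylation level in 5-point steps (x axis, percent), in siCon (top) and siH19 (bottom). Solid lines mark the internal windows and dotted lines the host windows; the hosts fall in the lowest step, and Nnat in the highest step at 97.4%.

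Nested genes in general seldom had this arrangement of levels. Among 370 distinct pairs of protein-coding genes in which 1 gene lies inside another and both start windows were compared, the internal window was between 30 and 70% and the host window under 30%, in both libraries, in 30 pairs, or 8.11%. Nap1l5 in Herc3, Zrsr1 in Commd1 and Mcts2 in H13 were the 3 member pairs in that set of 370, and all 3 showed it. Nnat and Blcap were outside the set, because the gene start of Blcap was not covered, and Inpp5f because both of its starts belong to 1 gene. The share is a background for the level and not evidence of imprinting at the other pairs.

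Of 12 imprinted promoters elsewhere in the genome, 10 had at least 5 compared cytosines, with Peg10 and Sgce sharing 1 window. Their levels ran from 29.3 to 78.0% in siCon and from 21.1 to 79.6% in siH19, and 7 of 10 lay between 30 and 70% in both libraries. By the CMH test below 1 of the 10 was called, Kcnq1ot1, at 30.6% and 48.0%. None reached the level of Nnat, the highest being Plagl1 at 78.0% and 79.6%. The parent genes of the retrocopies, Mcts1 and Zrsr2 on chromosome X, stood at 19.8% and 28.5% and at 25.6% and 30.0%. Of 8 factors known for setting or keeping imprints, 6 were compared, none was called between the libraries, and 3 lay under 10% in both.

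The bodies of the hosts differed from their promoters. Outside the start windows, Blcap stood at 93.5% in siCon and 93.6% in siH19 over 44 cytosines, of which 33 lie in the Nnat gene, and at 90.6% and 88.6% over the other 11. Outside all member start windows, internal and host alike, Herc3 stood at 91.0% and 91.7% over 29 cytosines, and Inpp5f at 78.6% and 80.6% over 9. H13 stood at 61.4% and 63.5% over 133 cytosines. Commd1 stood at 54.8% and 49.2% over 44, of which 16 lie in the Zrsr1 gene. The profiles around the internal starts showed a drop below the nearest flanking bins at Mcts2 and Nap1l5. At Mcts2, 1 cytosine in the bin from 2500 to 3000 bp downstream was at 100% in both libraries. The nearest bin upstream was at 65.6% in siCon and 65.5% in siH19. At Nap1l5, 1 cytosine in the nearest bin upstream was at 88.9% and 90%, and the nearest bin downstream was at 76% and 71.9%. At the internal Inpp5f start the nearest bin downstream was at 100% and 91.2%, but 1 cytosine upstream was at 25% and 60%. At Nnat there was no such drop: the level was 83.1% or more in every bin with a cytosine from 9500 bp upstream to 2500 bp downstream, and between 0.325 and 4.88% in the bins from 5500 to 6500 bp downstream, at the promoter of Blcap.

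**Figure D3:**
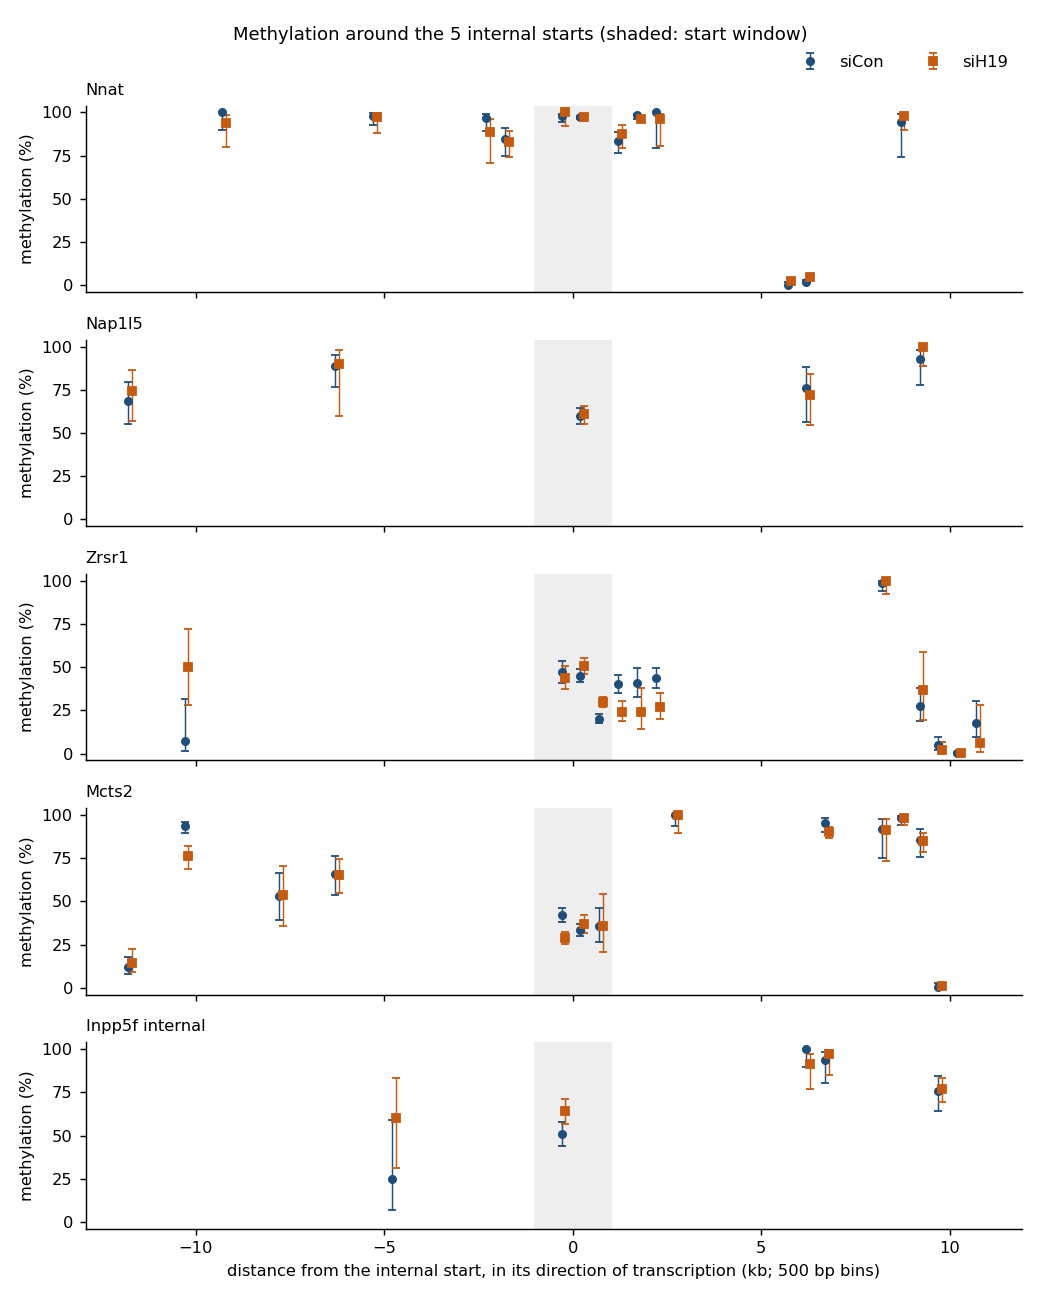
Methylation level (y axis, percent, with Wilson 95% intervals) in 500 bp bins by distance from each internal start in kb, in its direction of transcription (x axis), in siCon (circles) and siH19 (squares); the start window is shaded. Zrsr1, Mcts2, Nap1l5 and Inpp5f are intermediate at the start, while Nnat is at 97.3% in the 500 bp after its start.

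The second question was whether the internal or host promoters differed between siH19 and siCon. No member window was called. The Cochran-Mantel-Haenszel (CMH) test, which compares methylated reads cytosine by cytosine within a window, called 137 of 29618 windows, or 0.463%, where the adjusted p was under 0.05 and the libraries were 10 or more points apart, and 0 of the 10 member windows. At an unadjusted p under 0.05 there were 3, Blcap, Mcts2 and H13, against 16.9% of all windows. Windows with other annotated starts of the same genes gave 4 further distinct sets of cytosines, of which 0 were called. The differences are given as siH19 minus siCon with 95% intervals, and adjusted p-values are from this test over all windows.

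The Nnat window differed by 0.32 points (-0.86 to 1.5, adjusted CMH p of 0.975). For Nap1l5 the difference was -0.16 points (-7.24 to 6.92, adjusted CMH p of 1). Zrsr1 differed by 1.53 points (-1.67 to 4.73, adjusted CMH p of 0.779), while the difference of summed reads, which does not keep the cytosines apart, was 5.82 points with an adjusted p of 0.00572 by Fisher's exact test. The internal Inpp5f start had the largest difference of the 10, at 10.6 points (-0.75 to 21.9, adjusted CMH p of 0.372), and 10 of its 12 cytosines were higher in siH19. These 12 lie on 4 fragment strands and share reads within each, so they are not separate observations. The interval of this window includes 0 and reaches 21.9 points, and no difference was detected at this depth. With a minimum of 10 reads per cytosine the difference was 16.5 points (adjusted CMH p of 0.191), which is also the value without the minus strand of the fragment nearest to the start.

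Among hosts, Blcap differed by 1.16 points (0.479 to 1.83, adjusted CMH p of 0.0412), past the threshold of the test but far under the 10 points set for a call. Herc3 differed by -0.70 points (-1.46 to 0.062, adjusted CMH p of 0.366), Commd1 by 0.072 points (-0.912 to 1.06, adjusted CMH p of 1) and H13 by 1.22 points (0.0300 to 2.40, adjusted CMH p of 0.255). The gene start of Inpp5f differed by -0.13 points (-0.543 to 0.289, adjusted CMH p of 1). When only 1 cytosine was kept per fragment and strand, a choice made with the values known, the adjusted CMH p of Blcap was 0.744, and 2 windows were called in the whole genome.

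**Figure D4:**
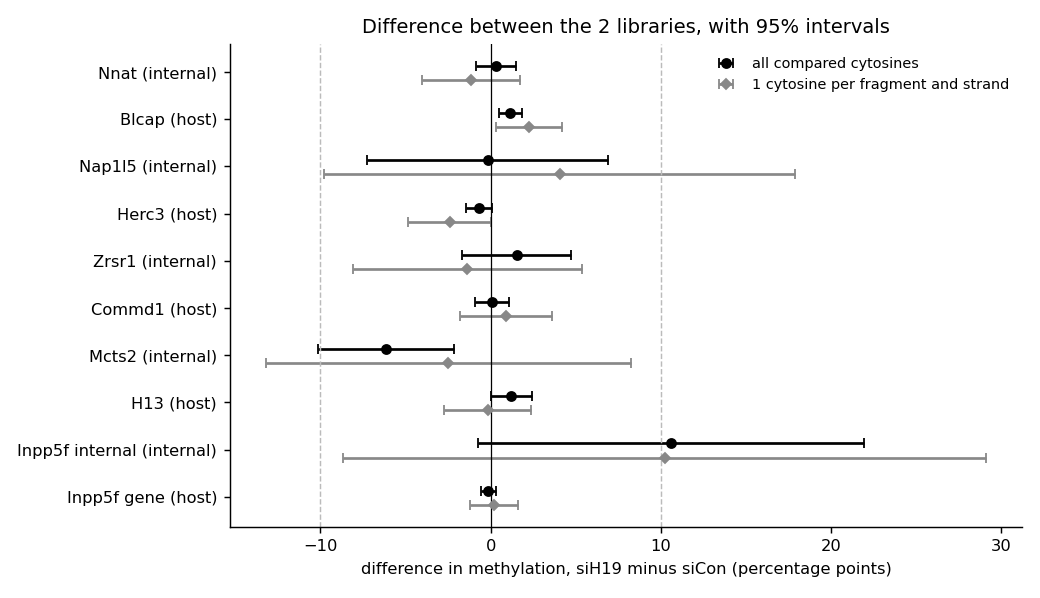
Difference in methylation between the libraries (x axis, siH19 minus siCon in percentage points) for the 10 member windows, with 95% intervals, over all compared cytosines (black) and with 1 cytosine per fragment and strand (grey). Dashed lines mark 10 points; the internal Inpp5f start, at 10.6 points, has an interval that includes 0.

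Mcts2 differed by -6.13 points (-10.1 to -2.13, adjusted CMH p of 0.0577), and this difference came from 1 strand of 1 fragment. In the fragment chr2:152686855-152686979, which holds the printed Mcts2 stretch, the 10 minus-strand cytosines stood at 41.6% in siCon and 13.2% in siH19. The 10 cytosines of the plus strand, which pair with them, stood at 42.4% and 44.2%. Within the minus strand the cytosines varied little, from 36.7 to 43.3% in siCon and from 12.9 to 16.1% in siH19, at median depths of 30 and 31 reads. The same reads cover these 10 cytosines, but the CMH test counts them at each cytosine, so its p-values for Mcts2 are too small. When this fragment strand was left out, the difference of the Mcts2 window was 2.65 points, with the levels at 36.0% and 40.3%. With 1 cytosine kept per fragment and strand, the difference was -2.49 points (-13.2 to 8.24). Over the whole window the minus strand stood at 38.8% in siCon and 22.3% in siH19, and the plus strand at 34.8% and 41.7%. On the minus strand alone Mcts2 was called, at -15.6 points (adjusted CMH p of 5.42e-06), and on the plus strand alone the difference was 5.35 points (adjusted CMH p of 0.430). The direction at Mcts2 therefore depended on the strand, and why the strands differed was not tested.

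Zrsr1 showed differences in both directions along its length. The 3 plus-strand cytosines of the fragment next to the start, which are those printed for Zrsr1, were at 66.7% in siCon and 28.8% in siH19, and their minus-strand partners were at 40.6% and 50.0%. The fragment 597 to 745 bp downstream was at 12.6% and 17.7% on the plus strand and at 6.94% and 33.3% on the minus strand. Beyond the window, the 16 cytosines in the rest of the Zrsr1 gene stood at 41.5% (38.1 to 45) in siCon and 25.1% (21.0 to 29.8) in siH19, a difference of -14.7 points (-20.4 to -8.94), which was computed as a description and has no test over all features. Of the 6 fragment strands there, 4 were lower and 2 higher in siH19, and shared reads within each make this interval too narrow. In the nearest fragment the plus strand was at 46.1% and 21.3%, and the minus strand at 17.3% and 28.9%. The window around the start of Zrsr1-203, 1210 bp downstream, includes all 16 of these cytosines together with others of the main window. It stood at 31.6% and 31.7% and was not called (adjusted CMH p of 0.599).

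**Figure D5:**
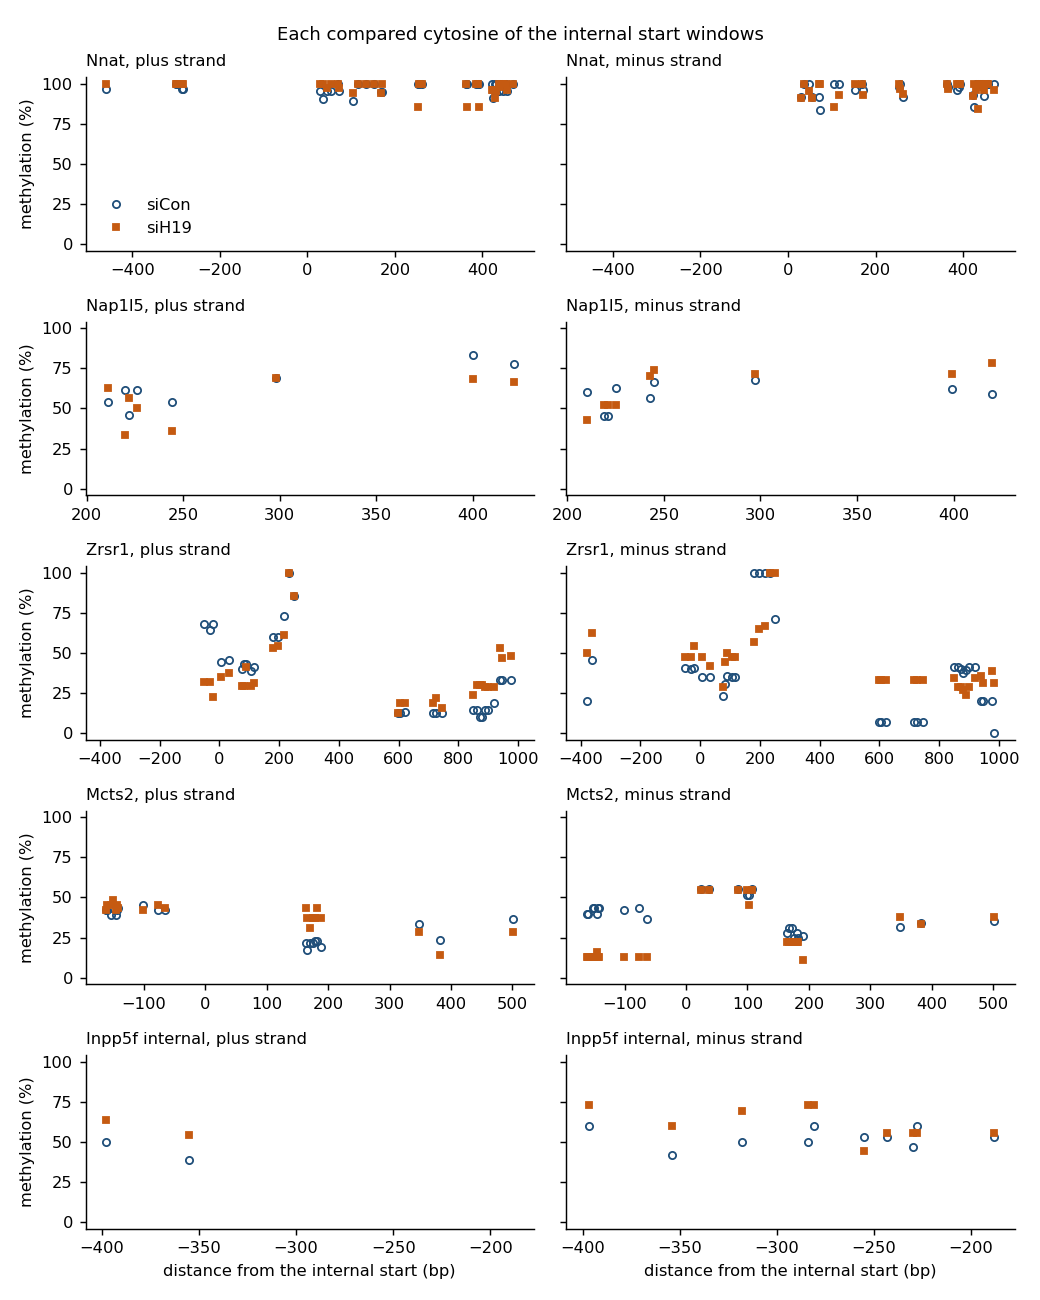
Methylation level (y axis, percent) of each compared cytosine in the 5 internal windows by distance from the start in bp (x axis), on the plus (left) and minus (right) strand, in siCon (open circles) and siH19 (filled squares). In Mcts2 the 10 minus-strand cytosines upstream of the start lie from 12.9 to 16.1% in siH19 and from 36.7 to 43.3% in siCon, while their plus-strand partners overlap.

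Single cytosines were compared by Fisher's exact test. Of the 706 member cytosines, 7 were strongly changed, with a p under 0.05 and levels 33 or more points apart, which is 0.992% against 0.986% of all 1850635 compared. Of these 1 was higher and 6 were lower in siH19. None of the 706 had an adjusted p under 0.05, and over all cytosines 0.00648% did. An unadjusted p under 0.05 was found at 31 of the 706, and at 2.53% of all cytosines. Of these 31, 10 lay in the Mcts2 window and 5 in the Zrsr1 window. The 10 are the minus-strand cytosines of 1 Mcts2 fragment, and the same reads cover them. The 5 lie on the plus strand of 1 Zrsr1 fragment and the minus strand of another. Cytosines of 1 fragment strand are therefore not separate observations. Of the 7, 4 lay in the Zrsr1 window and 0 in any host window, and the other 3 lay in the bodies of H13 and Commd1.

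All 4 strongly changed cytosines in the member windows were in Zrsr1 and lower in siH19, and the 3 with the lowest p are described here. At chr11:22971982, 23 bp before the start, 17 of 25 reads were methylated in siCon and 5 of 22 in siH19, while the partner on the other strand was at 40.9% and 54.5%. At chr11:22971952, on the same fragment, the counts were 17 of 25 and 7 of 22, and the partner was at 40.9% and 47.7%. At chr11:22972221, 216 bp after the start, 16 of 16 reads and 20 of 30 reads were methylated, with the partner at 72.7% and 61.0%. The partner moved in the other direction at the first pair of positions and in the same direction at the third. Each of the 3 had an adjusted p of 1 by Fisher's exact test.

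The windows were also searched for TGCCGC, the core of the motif bound by ZFP57, a zinc-finger protein that keeps imprints methylated, on both strands. The windows of Nnat and of the internal Inpp5f start each held 6 matches, Nap1l5 held 5, Mcts2 held 3 and Zrsr1 held 0. The host windows held 2 in Herc3, 1 each in Blcap, Commd1 and H13, and 0 at the Inpp5f gene start. At least 1 match was present in 54.2% of all compared windows and in 67.2% of CpG-dense ones, and 3 or more in 15.5% of the CpG-dense ones. The Mcts2 stretch printed above holds 3 of these matches and the Nnat stretch holds 3. A match describes only the letters of the window.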

How the data were processed

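Methylation was analysed from the 2 deposited files of CpG cytosines, 1 for siCon and 1 for siH19. Per the labels, 1 library per group was made from TaqαI and MspI fragments, and the submitters' processing notes name mm10 and bcl2fastq 1.8.4. Per the study's methods, Bismark, run as non-directional, aligned the reads, and the authors trimmed filled-in nucleotides. Removal of duplicates is not given in the sources used here. The values deposited by the authors were in a unit other than plain counts: each entry gave, as text, the methylated reads out of all reads at the cytosine and their percent. The authors also deposited a score, the level times 1000, used only to check the parsing (100% of entries matched).

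From these, cytosines read 5 or more times in both libraries and outside CCGG and TCGA (1850635, median depth 24 in both libraries) were placed on GRCm38. Windows of 1 kb either side of every transcript start of GENCODE (M21, comprehensive) with at least 5 cytosines were tested by the Cochran-Mantel-Haenszel test, stratified by cytosine and continuity-corrected, two-sided. Differences are Mantel-Haenszel weighted, and p-values were adjusted by Benjamini-Hochberg over 29618 distinct windows. Cytosines were tested by two-sided Fisher's exact test. Levels carry Wilson 95% intervals, which cover counting error alone, because PCR copies of 1 molecule cannot be recognised without molecular identifiers. Some cytosines were deeper than neighbours on the same fragment strand. At Nnat in siCon, chr2:157560124 had 42 reads and chr2:157560114 had 21. Whether molecules were counted more than once at such cytosines was not tested. The scripts were tested on simulated data and used Python 3.11.15, numpy 2.4.6, scipy 1.17.1 and pandas 2.3.3.

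All 9 members were named, and cytosines by the 3 lowest p in each direction among strongly changed ones in member windows. The members and lists were chosen with earlier results of these data known. Alternatives were the read minimum, enzyme sites, repeats, strand, depth, window size, test, weighting and thresholds.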

Additional observations from a re-analysis of the deposited data

How the results depend on the processing

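Each value was recomputed under the alternatives, and 1 cytosine per fragment and strand and each fragment strand left out in turn were added after seeing the data. Member windows called were 0 in 8 of 10 alternatives, 1 on the minus strand (Mcts2) and 1 with no minimum difference (Blcap). Strongly changed cytosines numbered 16 of 1086 (1.47%, against 1.42% of all cytosines) with enzyme sites kept, 3 of 350 (0.857%, against 0.991%) on the plus strand, 4 of 356 (1.12%, against 0.981%) on the minus strand and 28 of 706 (3.97%, against 1.86%) at a difference of at least 20 points, and internal windows at 40 to 60% numbered 0. Of the 28 at a difference of at least 20 points, 10 were the minus-strand cytosines of 1 Mcts2 fragment. The same reads cover these 10, so they are not separate observations, and an excess over all cytosines was not tested. The gap between internal and host windows stayed positive in 78 of 78 recomputed values, from 17.4 to 96.9 points. The difference between the libraries turned its sign in 28 of 119 values. With enzyme sites kept it was 0.87 points for Nap1l5, -0.30 for H13 and 0.31 for the Inpp5f gene start. On the plus strand it was -1.13 for Zrsr1, 5.35 for Mcts2, -1.54 for H13 and 0.27 for the Inpp5f gene start, and on the minus strand -0.14 for Nnat, 4.24 for Nap1l5 and -0.20 for Commd1. With 500 bp either side it was -3.54 for Zrsr1 and -0.042 for Commd1. On summed reads it was 1.00 for Nap1l5 and -2.01 for Commd1, and with unweighted means -0.15 for Nnat and 0.10 for the Inpp5f gene start. With 1 cytosine per fragment and strand it was -1.15 for Nnat, 4.05 for Nap1l5, -1.36 for Zrsr1, -0.18 for H13 and 0.21 for the Inpp5f gene start. Leaving out 1 fragment strand gave as little as -0.24 for Nnat, -0.25 for Zrsr1, -0.17 for Commd1 and -0.27 for H13, and as much as 1.73 for Nap1l5, 2.65 for Mcts2 and 0.0046 for the Inpp5f gene start. Except for Mcts2, the sign turned where the main interval included 0 or came near to it, and the cause was not tested. Blcap lost its adjusted p under 0.05 with at least 10 reads (0.0537), with enzyme sites kept (0.118), on the plus strand (0.823), on the minus strand (0.0779), with 500 bp either side (0.167) and with 1 cytosine per fragment and strand (0.744). An adjusted p under 0.05 was gained by H13 on the minus strand (0.0124), by Mcts2 on the minus strand (5.42e-06) and with 500 bp either side (0.0486), and on summed reads by Fisher's exact test for Zrsr1 (0.00572), Commd1 (0.00907), Mcts2 (0.0299) and H13 (0.0377). For the internal Inpp5f start the difference ranged from 7.55 to 16.5 points with 1 fragment strand left out. No paired analysis was possible because there was 1 library per group.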
